A study of Homo sapiens with 9 samples.

Results

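The RNAs described here are 10 long noncoding RNAs, UCA1, CYTOR, NORAD, TUG1, MALAT1, NEAT1, GAS5, SNHG1, SNHG5 and DANCR, taken by symbol from tables of 61155 gene symbols. All 10 passed a filter on low counts, as did 17759 symbols in all. They were chosen by symbol as nuclear RNAs, as hosts of small nucleolar RNAs (snoRNAs) or as RNAs studied in cancer, and as abundant. UCA1 was chosen by its measured levels, which separate 2 clones, so its values are a description with no test. The cells were MDA-MB-231, an established human line of basal-like breast cancer. The control group (WT) had received a scrambled guide RNA, and each of the other groups was 1 clone in which FBXL12 had been knocked out (KO1 for clone #1, KO2 for clone #2), with 3 libraries in every group. A clone grows from a single cell, so a difference between a clone and WT can belong to the knockout or to that clone, and the 2 cannot be told apart within 1 clone. Nothing in the labels ties the libraries of a group to separate cultures, and a p-value here reflects spread among libraries that may be partly or wholly technical.

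FBXL12, which encodes the substrate-recognising F-box subunit of an SCF ubiquitin ligase, was at 22.3 CPM in WT, 9.64 in KO1 and 5.94 in KO2 (CPM is counts scaled to the library total after TMM scaling). Total counts were 52427841 to 97243363 per library, and mitochondrial transcripts made up 3.52 to 3.83% of them in WT, 3.28 to 3.97% in KO1 and 4.49 to 5.39% in KO2. Of 12 markers of this line, such as VIM and CD44, SPARC alone lay under 1 CPM, and their summed level was 9270 to 11200 CPM. All 6 leukocyte and all 4 endothelial markers lay under 1 CPM in every group, and the summed fibroblast markers reached at most 5.82 CPM. The 8 luminal and hormone receptor markers summed to 83.4 to 91.2 CPM in WT, 73.8 to 85.3 in KO1 and 66.5 to 72.2 in KO2, with PGR at 0 in every library. ERBB2 made up most of each sum, at 75.55 CPM in WT, 63.32 in KO1 and 61.34 in KO2. Of the 5 luminal and hormone receptor markers that were tested, 2 rose and 1 fell in KO1 (beside 18.0 and 16.8% of all tested genes) and 4 fell in KO2 (beside 24.7%). EPCAM among them was at 1.77 CPM in WT, 4.52 in KO1 and 0.824 in KO2, the order of groups that UCA1 has, and its part in the results was not tested. WT replicate 1, KO1 replicate 2 and KO2 replicate 3 deviated from their groups in a common direction (correlation of their deviations across genes, 0.36 to 0.46). WT replicate 2, KO1 replicate 1 and KO2 replicate 2 shared another direction (0.46 to 0.54), and across groups correlated negatively with the former 3 (-0.53 to -0.33). The trend of log2 level with GC content (GC-rich minus GC-poor genes) was 0.092, 0.35 and 0.17 in WT replicates 1 to 3. It was 0.099, -0.33 and -0.1 in KO1 replicates 1 to 3, and -0.052, 0.012 and -0.26 in KO2. In each group the first set of 3 held the lowest value and the second set the highest. WT was positive throughout and the clones mostly negative. The part of this trend in the deviations was not tested. Results that rest on these libraries are also given without the first or the second set of 3.

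Long noncoding RNAs are transcripts without a long reading frame that act as RNA. MALAT1 gathers in nuclear speckles, where splicing factors are stored, and NEAT1 is the scaffold on which paraspeckles form. NORAD is cytoplasmic and binds the Pumilio proteins, which repress mRNAs. GAS5, SNHG1 and SNHG5 carry snoRNAs in their introns, and their spliced exons are known to be read by ribosomes and removed by nonsense-mediated decay. Many such hosts, like the genes of ribosomal proteins, begin with a 5' terminal oligopyrimidine (TOP) start, a C followed by a run of C and T. UCA1 was first described in bladder cancer, and CYTOR, DANCR and TUG1 have been studied in many carcinomas.

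The name "abundant" held for part of the set. NORAD was the highest, with 1.73% of tested genes above it by mean CPM over all libraries, and SNHG5, SNHG1, TUG1 and GAS5 had 6.91 to 9.20% above them. UCA1, NEAT1 and MALAT1 had 24.0, 24.5 and 35.6% of tested genes above them. Per kilobase of annotated exon the mean levels were 84.8 CPM for NORAD, 61.3 for SNHG5, 45.4 for SNHG1, 37.8 for GAS5 and 37.7 for DANCR. The values of GAS5 and DANCR were closer than the spread of either. TUG1 followed at 16.6 CPM per kilobase, UCA1 at 12.9, CYTOR at 4.54, MALAT1 at 3.23 and NEAT1 at 2.28. These means join all groups, and the order differed within them. UCA1 was at 11.4 CPM per kilobase in WT, 26.3 in KO1 and 1.04 in KO2. In WT DANCR was at 51.1, SNHG1 at 50.4 and GAS5 at 43.1. On this scale 46.1% of tested genes lay above MALAT1 and 51.9% above NEAT1, so the name did not hold for either in these counts. Whether poly(A) selection was used is not given, and only 4 of 19 listed short RNAs without a poly(A) tail could be tested. The counts may not show the levels of these 2 RNAs in the cells, and the part of any such selection was not tested. Exon lengths join all annotated isoforms and so lower the value of genes with many of them.

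Of the 9 RNAs other than UCA1, DANCR fell in KO1 and none rose, and 6 fell in KO2 and none rose. NEAT1, CYTOR, NORAD, GAS5, SNHG1 and DANCR were the 6 that fell in KO2, and TUG1, MALAT1 and SNHG5 did not pass the test there. Their median log2 change was -0.11 in KO1 and -0.24 in KO2, beside -0.005 and -0.008 over all tested genes. Of all tested genes, 34.8% changed in KO1 and 49.4% in KO2 at an adjusted p under 0.05. By direction, 16.8% fell and 18.0% rose in KO1, and 24.7% fell and 24.7% rose in KO2. Between the clones, NEAT1, CYTOR, NORAD and GAS5 were higher in KO1 and DANCR was lower, which makes 5 of 9 beside 48.9% of all tested genes (23.9% higher and 24.9% lower). Libraries of the compared groups did not overlap for 2 of the 9 RNAs in KO1, 6 in KO2 and 5 between the clones, beside 46.5, 58.8 and 55.1% of all tested genes. The count of RNAs that fell in KO1 depended on single libraries. It was 4 without KO1 replicate 2, as GAS5, SNHG1 and SNHG5 joined DANCR, and 2 without WT replicate 3. Without WT replicate 1 the count that rose in KO1 was 2, MALAT1 and NEAT1. Without the first set of 3 libraries that deviated together, 4 fell and 2 rose in KO1, and 6 fell and 1 rose in KO2. Without the second set the counts were 1 and 0 in KO1 and 5 and 0 in KO2, where SNHG1 no longer passed.

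**Figure D1:**
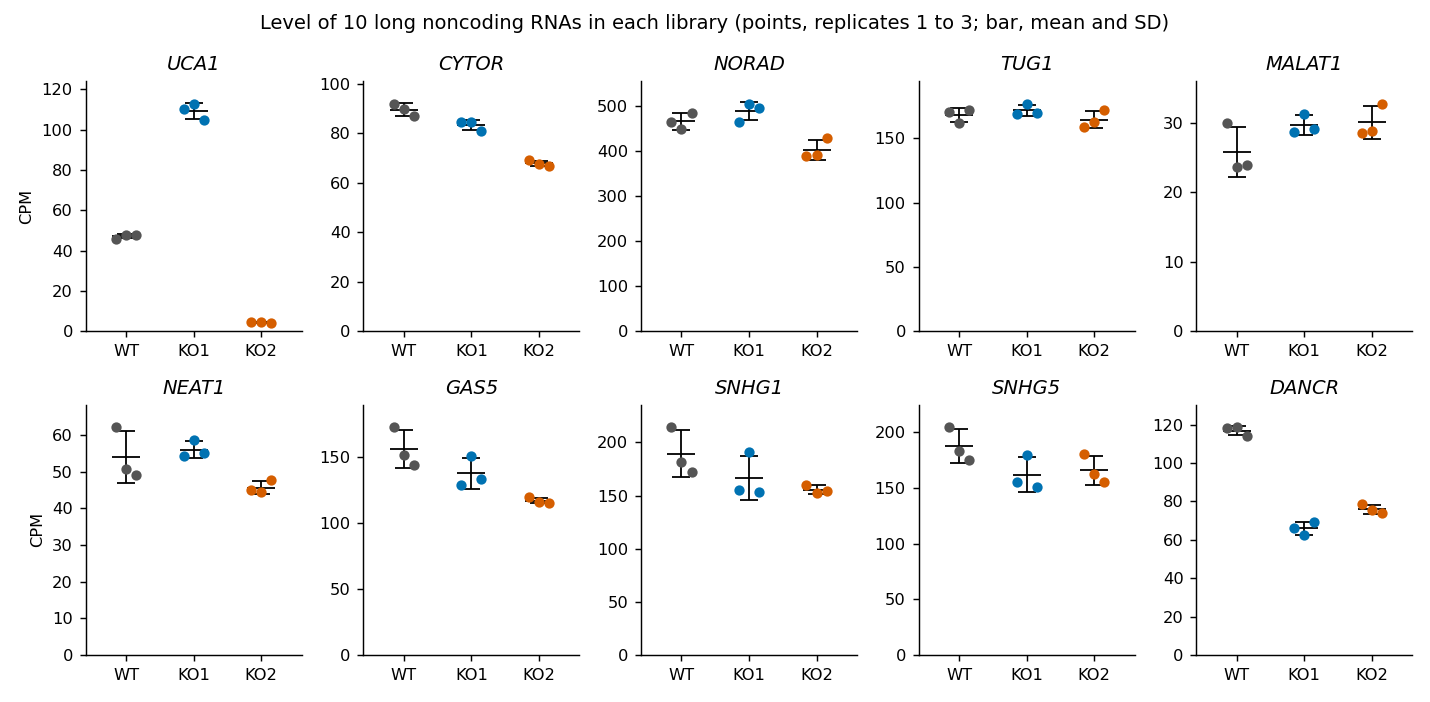
CPM (linear axis from 0) of each of the 10 RNAs in WT, KO1 and KO2. Points are libraries, bars the mean and SD of 3; UCA1 separates all groups, DANCR lies lower in both clones, and the groups of TUG1 overlap.

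**Figure D2:**
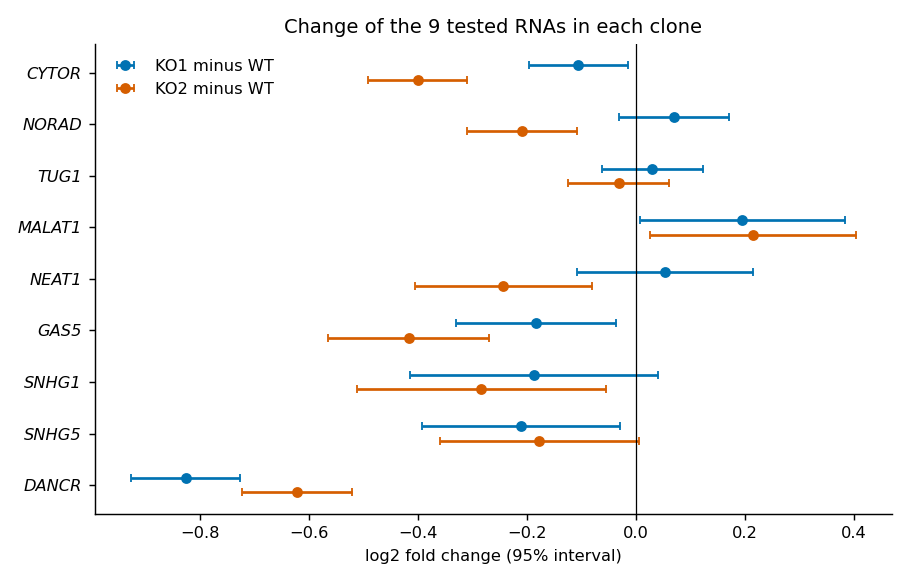
Log2 fold change of the 9 tested RNAs in KO1 and KO2 against WT, with 95% intervals from the fit across all genes. Both intervals of DANCR lie below 0 (-0.93 to -0.73 in KO1 and -0.72 to -0.52 in KO2), and both of TUG1 include 0.

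UCA1 was the RNA with the widest range. Its level was 45.9, 47.8 and 47.9 CPM in WT replicates 1 to 3, 110, 113 and 105 CPM in KO1, against 4.73, 4.33 and 3.93 CPM in KO2. Every KO1 library lay above WT and every KO2 library below it, with no overlap. On the log2 scale the level was 1.21 above WT in KO1, which is 2.32-fold, and the change in KO2 was -3.45, a 10.9-fold lower level. In bulk RNA fewer cells with an RNA and less of it per cell cannot be told apart. Counts behind these values were 2903 to 4513 in WT, 8591 to 9147 in KO1 and 247 to 285 in KO2, so UCA1 was still detected in every KO2 library. UCA1 (ENSG00000214049.7) occupies 15828206 to 15836326 of chromosome 19 (GRCh38, plus strand) and is annotated as a lincRNA.

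Genes around UCA1 lay lower in KO2 as well. Of 23 genes listed from its neighbourhood, 10 were tested and the other 13, which include the CYP4F cytochrome P450 genes that flank it, were too low in counts to test. All 10 fell in KO2, beside 24.7% of all genes, with log2 changes from -1.57 to -0.81 and a median of -1.27. In KO1 4 of 10 rose, beside 18.0% of all genes, with a median of 0.19 (9 of 10 with the GC trend removed). TPM4, which encodes a tropomyosin of the actin cytoskeleton, was at 2420, 2410 and 2400 CPM in WT, 4180, 4320 and 4160 in KO1, compared with 991, 977 and 1010 in KO2. Its changes were 0.81 ± 0.04 in KO1 (SE, adjusted p = 3.4e-10) and -1.28 ± 0.04 in KO2 (adjusted p = 7.93e-13), in the same order of groups as UCA1. FAM32A went from 336 to 424 and 138 CPM, and RAB8A, a small GTPase of vesicle transport, from 116 to 146 and 53.1 CPM, and both rose in KO1 and fell in KO2. AKAP8, which encodes a nuclear anchoring protein, fell by 1.23 in KO2 and was at 0.12 in KO1 (adjusted p = 0.0574).

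Within 1000 kb of the UCA1 start, 27 of 35 tested genes fell in KO2 and 1 rose, with a median log2 change of -1.21, while in KO1 11 fell and 4 rose, with a median of -0.11. Over all tested genes 24.7% fell and 24.7% rose in KO2, and 16.8% fell and 18.0% rose in KO1. Among the 20 nearest protein-coding genes, 10 on each side, whose mean log2 CPM was 2 or more, 20 fell in KO2 (median -1.24), and 5 rose and 4 fell in KO1 (median 0.07). After removal of each library's GC trend the medians were -1.14 in KO2 and 0.19 in KO1, and UCA1 was at -3.48 and 1.19. The part of the neighbourhood in the level of UCA1 was not tested.

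**Figure D3:**
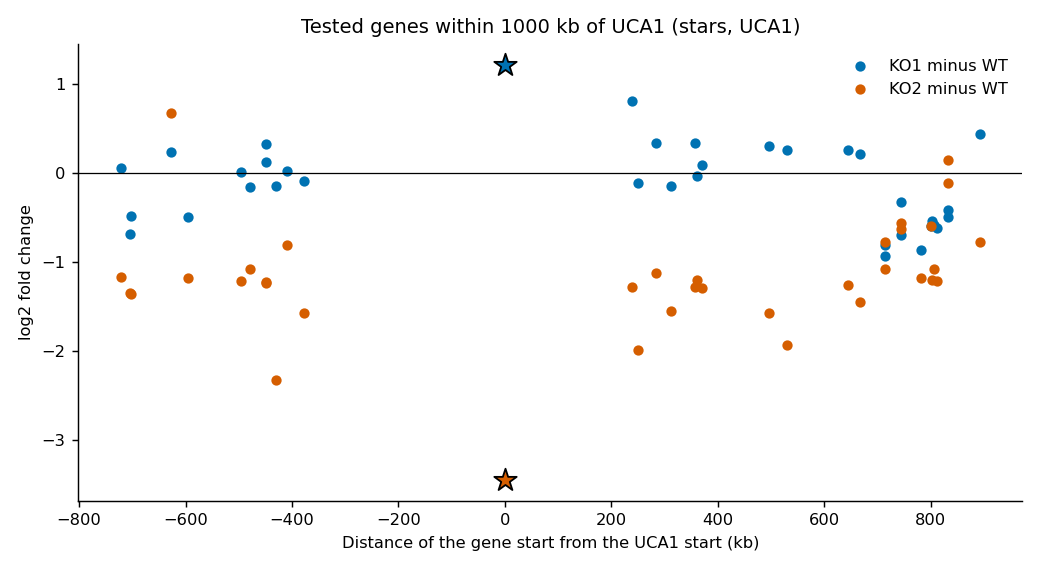
Log2 fold change of the 35 tested genes within 1000 kb of UCA1 against the distance of their start from the UCA1 start in kb, for KO1 and KO2 against WT; stars are UCA1. In KO2 27 of the 35 genes fell, beside 24.7% of all tested genes, and UCA1 at -3.45 lies below all 35.

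Over the 9 libraries, the genes most like UCA1 in their profile of log2(CPM + 0.5) about its mean were MYCT1, TNFSF18, ARMCX2, UBBP4 and TIE1. Likeness was the root mean square difference from the UCA1 profile, over 10614 candidate genes, and was 0.28 for MYCT1 and 0.51 to 0.73 for the others, beside a range of 4.51 for UCA1. The measure is not scaled, so genes with a much smaller range, such as the neighbours above, could not rank high. These genes were found by their likeness to UCA1, so their split of the clones follows from the search. MYCT1 was at 14.3 CPM in WT, 29 in KO1 and 1.53 in KO2. TNFSF18, which encodes a ligand of the tumour necrosis factor family, was at 19.8, 36.8 and 0.392 CPM. ARMCX2 had 63.3 CPM in WT and 61.4 in KO1, and 3.75 in KO2.

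CYTOR was lower in KO2 than in WT and KO1. It was at 92.0, 90.1 and 86.9 CPM in WT, 84.5, 84.5 and 80.9 in KO1, with 69.1, 67.8 and 66.9 in KO2, and no group overlapped another. KO2 differed from WT by -0.40 ± 0.04 (95% interval -0.49 to -0.31, adjusted p = 1.72e-06), a drop to 0.758 of WT. In KO1 it was -0.11 ± 0.04 and did not pass the test (adjusted p = 0.0668), and the clones differed by 0.29 (adjusted p = 3.31e-05). With each library's GC trend removed, the KO1 change was -0.17 and passed. CYTOR occupies 87454781 to 87636740 of chromosome 2, on the plus strand. Its 20 nearest expressed protein-coding genes, spread over 10288 kb, had a median change of -0.48 in KO2 and of 0.10 in KO1. In KO2 17 fell and 2 rose, beside 24.7% each of all genes. In KO1 8 rose and 4 fell, beside 18.0 and 16.8%.

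MIR4435-2HG, a near copy of CYTOR on the same chromosome, rose in both clones. It was at 71.7, 69.0 and 72.5 CPM in WT, 78.2, 79.3 and 78.7 in KO1, against 81.2, 81.4 and 84.7 in KO2. It rose by 0.15 in KO1 (adjusted p = 0.0128) and by 0.21 in KO2 (adjusted p = 0.00059), and every clone library lay above every WT library. The KO1 call was lost without WT replicate 2 (0.14) and without the second set of 3 libraries (0.13). The genes share 3409 of their 31-base transcript words, 18.7% of those of CYTOR and 25.2% of those of MIR4435-2HG, so reads from the shared part may have been counted for either gene or for neither. The sum of both was 160.7 ± 2.63 CPM in WT, 162.1 ± 2.14 in KO1 and 150.4 ± 1.22 in KO2 (SD, n = 3). This sum does not depend on how reads were split between the genes. It does depend on whether shared reads were left out or counted for both, which is not known. The 20 neighbours of MIR4435-2HG had medians of 0.07 in KO1 and 0.01 in KO2.

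The promoter windows of the pair, 250 bases before to 50 after the start in RefSeq (GRCh38.p14), show how close the copies are: they share an unbroken run of 241 bases. The windows are offset by 59 bases, so no longer run could be shared. Capitals mark TGAGTCA, the AP-1 site, searched on both strands, which stands 2 times in the window of CYTOR and once in that of MIR4435-2HG. The latter window ends before the place of the second, so the counts do not show that the copies differ there. Of 35116 promoters 4.95% hold it, and 0.222% hold it 2 or more times. The CYTOR window is chr2:87455177-87455476 on the plus strand and the other chr2:111495112-111495411 on the minus strand. A match is a description of the sequence and not evidence of binding.

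CYTOR promoter: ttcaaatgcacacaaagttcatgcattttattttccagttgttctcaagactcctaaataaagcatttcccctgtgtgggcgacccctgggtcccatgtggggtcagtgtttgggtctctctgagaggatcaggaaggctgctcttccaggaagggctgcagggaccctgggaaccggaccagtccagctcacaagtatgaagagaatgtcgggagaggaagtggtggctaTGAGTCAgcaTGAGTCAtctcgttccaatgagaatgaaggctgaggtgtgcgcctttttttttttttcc

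MIR4435-2HG promoter: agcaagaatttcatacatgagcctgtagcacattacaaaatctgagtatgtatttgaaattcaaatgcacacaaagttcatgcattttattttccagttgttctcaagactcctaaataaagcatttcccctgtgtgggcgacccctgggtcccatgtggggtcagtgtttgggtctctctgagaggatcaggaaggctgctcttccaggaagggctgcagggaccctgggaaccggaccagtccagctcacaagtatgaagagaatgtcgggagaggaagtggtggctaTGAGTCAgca

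NORAD, the most abundant of the 10, was at 465, 449 and 485 CPM in WT, 466, 506 and 497 in KO1, compared with 389, 392 and 429 in KO2. All KO2 libraries lay below all WT and KO1 libraries, and those of WT and KO1 overlapped. NORAD fell in KO2 by 0.21 on the log2 scale (change -0.21 ± 0.05, interval -0.31 to -0.11, adjusted p = 0.00192), was at 0.07 in KO1 (adjusted p = 0.28), and differed between the clones by 0.28 (adjusted p = 0.000157). Its 20 neighbours on chromosome 20 had medians of 0.02 and -0.03, near those of all genes. NORAD (minus strand, 36045622 to 36050960) is 1 exon of 5339 bases. It holds 15 Pumilio motifs, TGTANATA, on the transcribed strand, or 2.81 per kilobase. Among 12385 annotated lncRNA transcripts of at least 1000 bases, 83.8% hold none and 0.0242% have as many per kilobase or more. The first 3 in the transcript, at bases 761, 1140 and 1241, are shown with the motif in capitals, to show the element that NORAD repeats.

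NORAD base 761: tggaaggcctgTGTATATAatatgaaaaag

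NORAD base 1140: cctcactactgTGTATATAgttgacaatgc

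NORAD base 1241: aaatcacatttTGTAAATAcctttttgtta

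Of 4 tested NORAD partners, 1 rose in KO1 and 2 in KO2, beside 18.0 and 24.7% of all genes, and none fell. PUM2, which encodes a Pumilio protein, had 215 ± 8.57 CPM in WT, 257 ± 7.71 in KO1 and 234 ± 2.37 in KO2 (SD, n = 3), and rose in both clones (0.26, adjusted p = 0.000162, and 0.13, adjusted p = 0.0186). KHDRBS1, an RNA-binding protein also known as SAM68, rose by 0.12 in KO2 (adjusted p = 0.0149) and was at -0.01 in KO1. RBMX, a nuclear RNA-binding protein, was at 399, 409 and 412 CPM and passed in neither clone. The KO2 calls were small and rested on single libraries: PUM2 was at 0.10 to 0.13 and did not pass without WT replicate 1, WT replicate 2 or any KO2 library, and KHDRBS1 was at 0.09 to 0.12 and did not pass without WT replicate 1, WT replicate 2, KO2 replicate 2 or KO2 replicate 3.

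TUG1 passed the test in no comparison. It was at 170.5, 162 and 172 CPM in WT, 169, 177 and 169.7 in KO1, with 159, 163 and 172 in KO2, and the groups overlapped throughout. Its changes were 0.03 in KO1 (95% interval -0.06 to 0.12) and -0.03 in KO2 (-0.12 to 0.06), with adjusted p of 0.629 and 0.577. The intervals hold changes of up to 0.12 on the log2 scale in either direction. With the GC trend removed the KO2 change was -0.08 and passed the test, and with upper quartile scaling it was 0.00.

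MALAT1 and NEAT1 are neighbours on chromosome 11, at 65497688 to 65506516 and 65422774 to 65445540 on the plus strand. MALAT1 was at 29.96, 23.6 and 23.9 CPM in WT, 28.6, 31.2 and 29.04 in KO1, against 28.6, 28.8 and 32.7 in KO2. WT replicate 1 lay among the clone libraries, and the other WT libraries lay below all of them. The changes were 0.20 ± 0.09 in KO1 (adjusted p = 0.101) and 0.21 ± 0.09 in KO2 (adjusted p = 0.0574), and neither passed. Without WT replicate 1 they were 0.33 and 0.34, and both passed.

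NEAT1 was at 62.1, 50.7 and 49.2 CPM in WT, 54.5, 58.7 and 55.2 in KO1, compared with 45.0, 44.4 and 47.6 in KO2. The KO2 libraries lay below all others, and WT replicate 1 was again the highest of its group. NEAT1 fell in KO2 (change -0.24 ± 0.08 with an interval of -0.41 to -0.08, adjusted p = 0.0163) and was higher in KO1 than in KO2 by 0.30 (adjusted p = 0.00498). Without WT replicate 1 the change in KO2 was -0.12 and did not pass, while that in KO1 went from 0.05 to 0.18 and passed. The call in KO2 was also lost without KO2 replicate 1 (-0.24) or KO2 replicate 2 (-0.23). The difference between the clones passed in each of these cases.

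The libraries above their group mean for MALAT1 and NEAT1 were partly those for the snoRNA hosts. In WT replicate 1, MALAT1 lay 0.22 and NEAT1 0.21 above the group mean on the log2 scale, SNHG1 0.18, GAS5 0.15 and SNHG5 0.13. In KO1 replicate 2 the values were 0.08, 0.06, 0.20, 0.13 and 0.16. In KO2 replicate 3 MALAT1 lay 0.12 above and SNHG5 0.09 below its mean, so the RNAs did not go together there. DANCR, also a snoRNA host, was at 0.01 in WT replicate 1 and -0.08 in KO1 replicate 2.

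**Figure D4:**
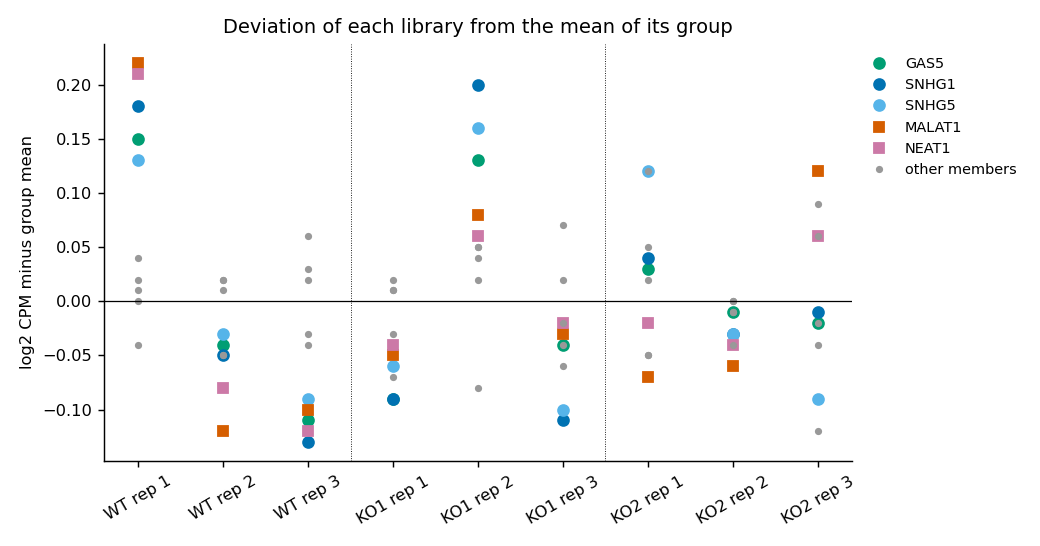
Log2 CPM of each RNA in each library minus the mean of that group, with GAS5, SNHG1 and SNHG5 as circles, MALAT1 and NEAT1 as squares, and the other members, the snoRNA host DANCR included, as grey dots. WT replicate 1 and KO1 replicate 2 hold GAS5, SNHG1, SNHG5, MALAT1 and NEAT1 above 0, the former from 0.13 to 0.22.

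Of 18 paraspeckle proteins, all tested, 1 rose and 5 fell in KO1 and 2 rose and 8 fell in KO2, with median changes of -0.06 and -0.12. The shares that fell were 27.8 and 44.4%, beside 16.8 and 24.7% of all genes. In KO1, 2 fell without WT replicate 2, 3 without WT replicate 3 or KO1 replicate 3, and 5 rose without KO1 replicate 1. In KO2, 1 rose when any single WT or KO2 library, or KO1 replicate 3, was left out. The core proteins NONO and SFPQ, which hold paraspeckles together with NEAT1, passed in neither clone (-0.10 and 0.02 in KO1, -0.04 and 0.04 in KO2). These 2 were named after their values were seen. PSPC1, their paralog, fell to 104 in KO1 and 89.0 in KO2 from 114 CPM in WT, and the KO1 call was lost without any WT library, KO1 replicate 1 or KO1 replicate 3 (-0.13 to -0.09). SMARCA4, a chromatin-remodelling ATPase also known from paraspeckles, fell from 242 ± 16.8 CPM to 172 ± 14.2 and 116 ± 5.27, by 0.50 and 1.06 on the log2 scale. ZNF24 rose by 0.24 in KO1 and fell by 0.51 in KO2, and NUDT21, of the cleavage factor that sets NEAT1 length, fell by 0.42 in KO2.

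Among 18 proteins of nuclear speckles and splicing, none rose and 5 fell in KO1 (27.8%, beside 16.8% of all genes), and 1 rose and 10 fell in KO2 (55.6%, beside 24.7%). With the GC trend removed 8 fell in KO1, with upper quartile scaling 6 fell in KO2, and 2 rose in KO1 without KO1 replicate 1 or KO2 replicate 3. The one that rose was SF3B1, a core splicing factor, from 420 to 574 CPM in KO2 (0.45 ± 0.04, adjusted p = 4.55e-07). U2AF2, which reads the polypyrimidine tract, fell by 0.39 in KO1 and 0.28 in KO2. SRRM2 fell by 0.24 in KO1 and SRSF5 by 0.25. After removal of the GC trend U2AF2 was at 0.01 and SRRM2 at 0.02 in KO2. Of 17 tested genes around MALAT1 and NEAT1, 4 fell in KO1, and 1 rose and 3 fell in KO2, with medians of -0.14 and -0.16. The shares that fell, 23.5 and 17.6%, stand beside 16.8 and 24.7% of all genes. The number that fell in KO1 was 0 without WT replicate 2 or KO1 replicate 3 and 7 without KO1 replicate 1, and with the GC trend removed 1 fell and 5 rose. PCNX3 fell in KO2 by 0.56. The median of the 20 nearest genes was -0.18 in each clone, and -0.06 and -0.01 with the GC trend removed.

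GAS5 fell in KO2. It was at 173, 152 and 144 CPM in WT, 129, 151 and 134 in KO1, with 120, 116 and 116 in KO2. KO2 lay below all other libraries, and KO1 replicate 2 lay among WT. GAS5 changed by -0.42 ± 0.07 in KO2 (interval -0.56 to -0.27, adjusted p = 0.000219) and -0.18 ± 0.07 in KO1 (adjusted p = 0.0526), and the clones differed by 0.23 (adjusted p = 0.0119). Without KO1 replicate 2 the KO1 change was -0.25 and without WT replicate 3 it was -0.22, and both passed, while without KO2 replicate 3 the difference between the clones was 0.22 and did not pass.

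SNHG1, which hosts a cluster of box C/D snoRNAs, was at 214, 182 and 172 CPM in WT, 155, 191 and 153 in KO1, against 160, 153 and 154 in KO2. KO2 lay below WT, and KO1 spanned both. The change in KO2 passed narrowly (-0.28 ± 0.10 with adjusted p = 0.0423) and was lost when any of 6 single libraries was left out, with -0.18 without WT replicate 1. These were WT replicates 1 and 2, KO1 replicate 1 and each KO2 library. In KO1 it was -0.19 (adjusted p = 0.185), and -0.29 without KO1 replicate 2, which passed.

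SNHG5, host of the SNORD50 genes, was at 204.5, 183 and 175 CPM in WT, 155, 180.2 and 151 in KO1, compared with 180.5, 162 and 155 in KO2. The groups overlapped, and neither -0.21 in KO1 (interval -0.39 to -0.03, adjusted p = 0.0712) nor -0.18 in KO2 (interval -0.36 to 0.01, adjusted p = 0.0992) passed. Without KO1 replicate 2 the KO1 change was -0.29 and that in KO2 -0.19, and both passed. Without KO2 replicate 1 the KO2 change was -0.25 and passed.

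DANCR, host of SNORA26 and first described as a brake on differentiation, fell in both clones. It was at 118, 118 and 114 CPM in WT, 66.2, 62.5 and 69.1 in KO1, with 78.5, 75.4 and 73.9 in KO2, with no overlap between any groups. The change was -0.83 ± 0.05 in KO1 (interval -0.93 to -0.73, adjusted p = 7.7e-09), to 0.564 of WT, and -0.62 ± 0.05 in KO2 (interval -0.72 to -0.52, adjusted p = 4.07e-08), to 0.65 of WT. The clones differed by -0.20 (adjusted p = 0.00203). DANCR (plus strand of chromosome 4, 52712404 to 52720351) has neighbours, 20 genes spread over 8119 kb, that more often went the other way. In KO1 12 rose and none fell (median 0.16), beside 18.0 and 16.8% of all genes. In KO2 10 rose and 3 fell (median 0.13), beside 24.7% each. With the GC trend removed DANCR was at -0.75 and -0.57 and the neighbours at 0.08 and 0.10.

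By the same likeness over 9 libraries, the profile of DANCR, with a range of 0.822, was closest to PGPEP1, MRPL2, AP1M2, DCAF4 and BAK1 (0.075 to 0.093). MRPL2, a protein of the mitochondrial ribosome, was at 69.1 CPM in WT, 38.4 in KO1 and 47.1 in KO2, and BAK1, an apoptosis effector, at 47.4, 29.4 and 33.1. The profile of GAS5, with a range of 0.41, was closest to MTHFD2L, WDR61, PARGP1, APTR and HMGN4 (0.041 to 0.057). MTHFD2L, an enzyme of folate metabolism, went from 20.2 to 18.1 and 15.5 CPM.

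The 5' ends of annotated transcripts (GENCODE 29) show where these hosts do and do not resemble ribosomal protein genes. Capitals mark the run of C and T that begins at the first base. ZFAS1, another snoRNA host, is set beside them.

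GAS5-219 5' end: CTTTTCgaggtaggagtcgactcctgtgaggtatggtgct

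SNHG5-202 5' end: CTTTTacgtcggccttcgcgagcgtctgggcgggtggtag

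ZFAS1-201 5' end: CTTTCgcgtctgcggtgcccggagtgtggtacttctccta

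SNHG1-209 5' end: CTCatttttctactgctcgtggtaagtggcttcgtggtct

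DANCR-201 5' end: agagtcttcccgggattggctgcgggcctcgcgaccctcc

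A C followed by at least 4 pyrimidines began 6 of 29 transcripts of GAS5, 3 of 23 of SNHG5, 1 of 25 of SNHG1, 3 of 10 of ZFAS1 and 0 of 5 of DANCR, beside 2.41% of all annotated transcripts. Among transcripts of ribosomal protein genes 168 of 824 (20.4%) began so. Counted by gene, at least 1 such transcript was annotated for 67 of 85 ribosomal protein genes (78.8%) and for 6.75% of all genes. Of the members that are not snoRNA hosts, UCA1 had 1 of 36 and CYTOR 1 of 38, and MALAT1, NEAT1, NORAD and TUG1 had none. The transcripts shown for GAS5, SNHG5 and ZFAS1 have such a start, as a minority of those of each gene do, and those shown for SNHG1 and DANCR do not. ZFAS1 had changes of -0.05 and -0.07 that passed in neither clone.

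The promoter windows of GAS5, SNHG1 and SNHG5 each hold a TATA-like motif (TATTTAA or TATATAAG, on either strand), as 5.09% of the 35116 promoters do. Those of MALAT1, CYTOR, NORAD, TUG1 and DANCR hold none. The windows of SNHG1 and SNHG5 are shown, and capitals mark the motif and the first 10 transcribed bases. In the window of DANCR capitals mark ATTGG or its complement CCAAT, found 5 times. The windows of GAS5 and TUG1 hold it 3 and 2 times, and those of CYTOR and SNHG5 hold 1 each. Those of MALAT1, NORAD and SNHG1 hold none. At least 1 stands in 34.6% of promoters and 2 or more in 10.8%. The letters searched were chosen with these windows in view. Of the 10 RNAs, 8 had an entry in the RefSeq table. The windows are chr11:62855836-62856135 on the minus strand, chr6:85678684-85678983 on the minus strand and chr4:52712144-52712443 on the plus strand (GRCh38.p14).

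SNHG1 promoter: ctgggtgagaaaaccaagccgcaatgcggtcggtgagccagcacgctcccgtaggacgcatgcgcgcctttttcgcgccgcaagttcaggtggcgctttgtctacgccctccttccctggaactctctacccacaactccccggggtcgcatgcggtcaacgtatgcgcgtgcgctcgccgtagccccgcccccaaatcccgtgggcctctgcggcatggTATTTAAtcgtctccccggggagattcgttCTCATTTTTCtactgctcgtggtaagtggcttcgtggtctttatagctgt

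SNHG5 promoter: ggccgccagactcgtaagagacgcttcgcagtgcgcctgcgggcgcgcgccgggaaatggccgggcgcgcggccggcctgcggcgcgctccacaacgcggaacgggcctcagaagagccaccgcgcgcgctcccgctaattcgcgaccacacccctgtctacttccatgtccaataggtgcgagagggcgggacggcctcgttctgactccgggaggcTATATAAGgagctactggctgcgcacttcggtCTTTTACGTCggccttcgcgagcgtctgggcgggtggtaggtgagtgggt

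DANCR promoter: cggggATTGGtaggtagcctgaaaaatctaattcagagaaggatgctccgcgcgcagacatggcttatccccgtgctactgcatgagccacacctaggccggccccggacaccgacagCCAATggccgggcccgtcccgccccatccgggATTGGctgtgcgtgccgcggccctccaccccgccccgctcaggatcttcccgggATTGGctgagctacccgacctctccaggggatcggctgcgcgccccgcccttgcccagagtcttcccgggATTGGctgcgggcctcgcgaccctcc

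Among other snoRNA hosts, most of those that changed fell. Of 25 listed, 22 were tested: none rose and 15 fell in KO1 (68.2%, beside 16.8% of all genes), and 1 rose and 14 fell in KO2 (63.6%, beside 24.7%). Their median changes were -0.38 and -0.41. Without the first set of 3 libraries that deviated together 14 fell in KO1 and 12 in KO2, and without the second set 13 fell in each. SNHG29, the most abundant, was at 449, 442 and 407 CPM in WT, 336, 343 and 327 in KO1, against 351, 362 and 337 in KO2, and fell by 0.37 and 0.31 on the log2 scale. SNHG3 was at 125, 118 and 111 CPM in WT, 89.3, 95.7 and 86.6 in KO1, compared with 77.4, 70.8 and 63.9 in KO2. Every clone library lay below every WT library in both. SNHG10 fell by 0.93 in KO1 and 0.34 in KO2, and SNHG17 by 0.32 and 0.55. The one that rose in KO2 was SNHG18, from 1.93 to 2.68 CPM, named after its value was seen.

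**Figure D5:**
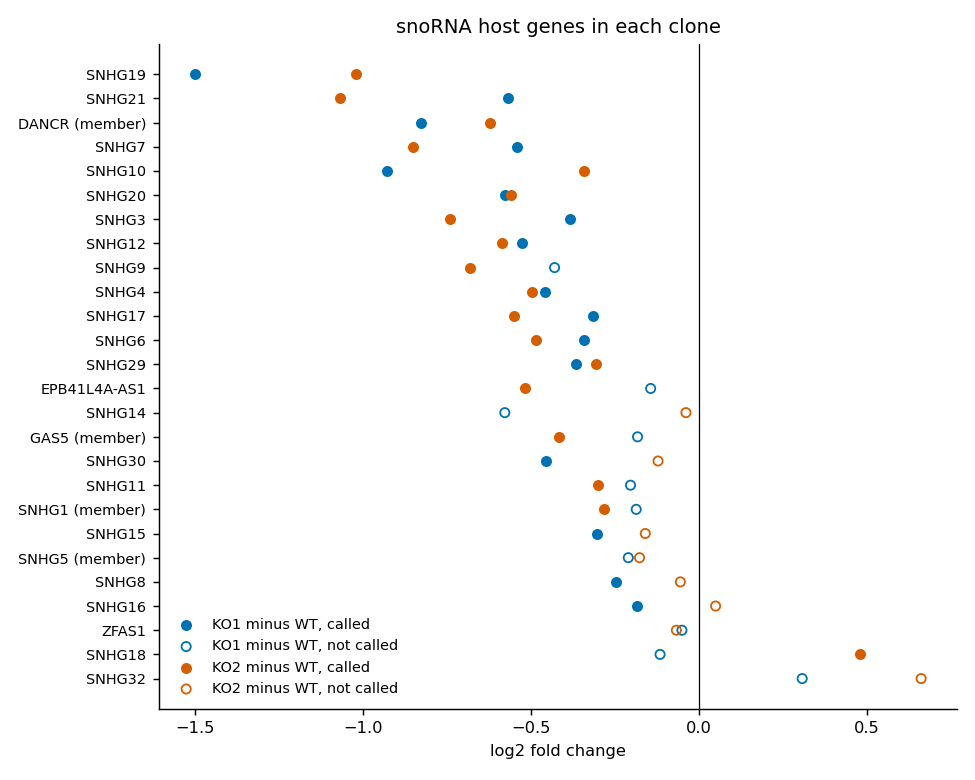
Log2 fold change of the 22 other tested snoRNA hosts and the 4 members in KO1 and KO2 against WT; filled points passed the test, open points did not. Points lie mostly below 0, with 15 of the 22 filled below 0 in KO1 and 14 in KO2.

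The snoRNAs themselves were hardly counted. Of 21 listed for GAS5, SNHG1, SNHG5 and DANCR, 11 had a row and SNORA26 alone was tested, at 0.195 CPM in WT, 0.145 in KO1 and 0.185 in KO2, with no call. Short RNAs without a poly(A) tail were also low, with 4 of 19 tested. Of these 4, 3 fell in KO1 and 2 in KO2, beside 16.8 and 24.7% of all genes. The counts that fell were 1 in KO1 without WT replicate 1, and 4 in KO2 without WT replicate 3. RN7SL1, the signal recognition particle RNA, was at 5.86 ± 1.07 CPM in WT, 3.05 ± 0.263 in KO1 and 4.70 ± 1.03 in KO2 and fell in KO1 (-0.94, adjusted p = 0.000484). Its change in KO2 was -0.32 (adjusted p = 0.116), and 0.03 with the GC trend removed.

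Of 16 proteins of snoRNA particles, 1 rose and 7 fell in KO1, and 1 rose and 6 fell in KO2, with medians of -0.14 and -0.05. The shares that fell were 43.8 and 37.5%, beside 16.8 and 24.7% of all genes. FBL, the methyltransferase of box C/D particles, fell from 345 CPM to 266 and 308, and NOP56, of the same particle, from 513 to 436 and 417. PIH1D1, an assembly factor, fell from 138 to 106 and 99.1 CPM. NOP10, of box H/ACA particles, rose by 0.17 in KO1, a call lost without WT replicate 3 (0.15), and fell by 0.32 in KO2. Among 31 tested translation genes with a TOP start, 1 rose and 17 fell in KO1 (54.8%, beside 16.8% of all genes) and 3 rose and 15 fell in KO2 (48.4%, beside 24.7%), with medians of -0.19 and -0.16. RPLP0 fell from 4144 to 3307 and 2904 CPM, and RPL3 from 1370 to 1090 and 1033. RPL4 and RPL32 fell in KO2 by 1.44 and 0.63 and did not pass in KO1 (-0.06 and -0.09).

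Factors of nonsense-mediated decay, which removes spliced GAS5 and SNHG1, were called about as often as all genes. Of 16, 2 rose and 2 fell in KO1 (12.5% each, beside 18.0 and 16.8% of all genes), and 3 rose and 5 fell in KO2 (18.8 and 31.2%, beside 24.7% each). Without the second set of 3 libraries 1 rose and 1 fell in KO1. None fell in KO1 without WT replicate 1, WT replicate 2 or KO1 replicate 3. UPF3B rose from 40.6 to 49.1 CPM in KO1 and fell to 23.0 in KO2. NBAS and SMG6 rose in KO2 by 0.35 and 0.40, and RBM8A, of the exon junction complex, fell there by 0.30.

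Among 25 tested of 45 other lncRNAs studied in cancer, 7 rose and 2 fell in KO1 and 11 rose and 5 fell in KO2, with medians of 0.03 and 0.27. The shares that rose were 28.0 and 44.0%, beside 18.0 and 24.7% of all genes. Without the second set of 3 libraries 3 rose in KO1. Without KO2 replicate 3, 4 fell in KO1, and without WT replicate 1, KO2 replicate 1 or KO2 replicate 3, 3 fell in KO2. CRNDE separated the clones in the order opposite to UCA1: its levels were 20.3 ± 1.34 CPM in WT, 9.60 ± 0.799 in KO1 and 46.2 ± 1.57 in KO2 (SD, n = 3), changes of -1.08 and 1.18 (adjusted p = 3.5e-08 and 2.47e-09). OIP5-AS1 went from 132 to 161 and 85.3 CPM, rising in KO1 and falling in KO2. LUCAT1 was at 7.59, 7.11 and 18.8 CPM and rose in KO2 by 1.31. MIR100HG rose in both clones, by 0.75 and 0.54. For the remaining members the 20 nearest genes had medians between -0.11 and 0.13, among them those of GAS5 (0.13 and 0.01), SNHG1 (-0.11 and -0.03), SNHG5 (0.12 and 0.03) and TUG1 (-0.02 and -0.03).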

How the data were processed

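RNA of 9 libraries was sequenced with Illumina TruSeq libraries, per the labels' protocols. The deposited values are whole-number read counts for each gene symbol, which the authors did not normalize; the submitters' processing notes name Trim Galore and HISAT2. The sources used here do not give the read counter, annotation, strand setting, handling of reads with several matches, or any poly(A) selection. Reads of antisense genes and of near copies may therefore be mixed. Total counts were 52427841 to 97243363 per library; 3 counts, the limit that a count of 0 allows, are 0.0309 to 0.0572 CPM, which covers counting error only.

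Counts were fitted with edgeR 4.0.16 (R 4.3.3): filterByExpr, TMM factors, and a robust quasi-likelihood model with 1 mean per group over all 9 libraries. Adjusted p-values are Benjamini-Hochberg over 17759 genes, calls were made under 0.05, and a standard error is the log2 change divided by the square root of its F value. The fit was tested on simulated counts drawn independently for each library, with no GC trend and no deviations shared across groups. That simulation does not cover these features of the real libraries. The comparison of KO1 with KO2 is also the test of a difference between the clones' changes. Libraries of a group differed by 6.36 to 31.9 in chi-square per degree of freedom, so none was a copy. Lists were described by counts, without a test. The named genes of a list are up to 4 above a mean log2 CPM of 2 that had the smallest p in either clone; the members, FBXL12, MIR4435-2HG and tested NORAD partners were also named, except that some genes which these rules take are not reported here. Profiles were compared on log2(CPM + 0.5). The members and lists were chosen with earlier results of these data known.

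Positions, exon lengths, GC content and transcripts come from GENCODE 29 (GRCh38), promoters from RefSeq (GRCh38.p14). Alternatives were other scalings, filters, DESeq2 1.42.0, limma-voom (limma 3.58.1), pairwise fits, a replicate block, removal of GC trends (lowess, span 0.3) and leaving out each library. Leaving out mitochondrial transcripts, or either of 2 sets of 3 libraries, was chosen after seeing the data. The numbers of the libraries did not pair them.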

Additional observations from a re-analysis of the deposited data

Results flagged for a closer look

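The changes of the clones from WT differed for the RNAs below, by the test of KO1 against KO2 at an adjusted p under 0.05 (edgeR), which 48.9% of all tested genes pass. Values are log2 levels in KO1 minus those in KO2, and a positive value means a higher level in KO1. Among the 10 RNAs these were NEAT1 at 0.30, CYTOR at 0.29, NORAD at 0.28, GAS5 at 0.23 and DANCR at -0.20. UCA1, at 4.66, lay above WT in every KO1 library and below WT in every KO2 library; its difference was not tested, since it was chosen for it.

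Around UCA1 the differences were 2.09 for TPM4, 1.62 for FAM32A, 1.46 for RAB8A and 1.36 for AKAP8, and near NEAT1 -0.31 for DPF2. Among snoRNA hosts and particles they were 0.36 for SNHG3, 0.24 for SNHG17, -0.59 for SNHG10, -0.21 for FBL and 0.49 for NOP10. Translation genes gave 1.38 for RPL4, 0.55 for RPL32 and 0.19 for RPLP0. Decay factors gave 1.10 for UPF3B, 0.28 for RBM8A, -0.23 for NBAS and -0.36 for SMG6. Proteins of nuclear bodies gave 0.57 for SMARCA4, 0.50 for NUDT21, 0.75 for ZNF24, 0.23 for PSPC1, -0.51 for SF3B1, -0.13 for SRRM2 and -0.17 for SRSF5. The NORAD partners PUM2 and KHDRBS1 were at 0.13 and -0.13. Other noncoding RNAs gave -1.40 for LUCAT1, -2.27 for CRNDE, 0.92 for OIP5-AS1, 0.21 for MIR100HG and -0.62 for RN7SL1.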

How the results depend on the processing

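Of the 6 counts of members called and the changes of the 10 RNAs, those not named here kept their direction and side of the threshold under every alternative run; causes were not tested, beyond the different sets of genes or libraries. With no filter on low counts MALAT1 passed in both clones (0.20 and 0.20) and was at 0.00 between them, GAS5, SNHG1 and SNHG5 passed in KO1 (-0.17, -0.18 and -0.20) and SNHG5 in KO2 (-0.19), so 1 rose and 4 fell in KO1 and 1 rose in KO2; RBMX between the clones was at 0.01. With upper quartile scaling MALAT1 passed in KO2 (0.25, so 1 rose), TUG1 was at 0.00 and SNHG1 did not pass (-0.25). DESeq2 called MALAT1 in KO2 (0.21, so 1 rose) and SNHG5 in KO1 (-0.20, so 2 fell). A minimum of 1 CPM gave calls in KO1 for CYTOR (-0.11) and GAS5 (-0.19), so 3 fell. Library totals and limma-voom called GAS5 in KO1 (-0.19 in each, so 2 fell). With the GC trend removed CYTOR (-0.17) and GAS5 (-0.25) passed in KO1, so 3 fell, TUG1 was at -0.02 in KO1 and passed in KO2 (-0.08), and these changed sign: NUDT21 (-0.02), RBMX (-0.05) and FRMD8 (0.12) in KO1, and U2AF2 (0.01), SRRM2 (0.02) and RN7SL1 (0.03) in KO2. In a fit of only the 2 groups compared RBMX between the clones was at 0.00.

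The replicate block called SNHG5 in KO1 (-0.21), so 2 fell there. Same-numbered libraries had correlations of deviations from -0.53 to 0.48, and 3 of 9 pairs exceeded 0.1, so they share only a number.

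With 1 library left out at a time, changes ran as follows in KO1: MALAT1 0.15 to 0.33, NEAT1 0.00 to 0.18, GAS5 -0.25 to -0.09, SNHG1 -0.29 to -0.07, SNHG5 -0.29 to -0.13, RBM8A -0.06 to 0.02, KHDRBS1 -0.02 to 0.02 and RBMX 0.00 to 0.08. In KO2 they were MALAT1 0.14 to 0.34, NEAT1 -0.31 to -0.12, SNHG1 -0.35 to -0.18 and SNHG5 -0.25 to -0.11. Between the clones they were UCA1 4.60 to 4.74, SNHG1 0.00 to 0.17, MALAT1 -0.05 to 0.05, GAS5 0.18 to 0.29, SNHG5 -0.10 to 0.04 and RBMX -0.04 to 0.04. From 0 to 2 members rose and 1 to 4 fell in KO1, and 0 to 1 rose in KO2. Without WT replicate 1, KO1 replicate 2 and KO2 replicate 3 together, UCA1 between the clones was at 4.58, MALAT1 at 0.28 in each clone and 0.01 between them, NEAT1 at 0.14, GAS5 at -0.17, SNHG1 at -0.19, SNHG5 at -0.22, KHDRBS1 at -0.03 and RBMX at 0.00 in KO1, SNHG5 at -0.06 in KO2, and GAS5 at 0.16, SNHG1 at -0.02 and SNHG5 at -0.16 between the clones; 2 rose and 4 fell in KO1, 1 rose in KO2 and 2 were lower in KO1 than in KO2. Without WT replicate 2, KO1 replicate 1 and KO2 replicate 2 together, SNHG1 in KO2 was at -0.31 and did not pass, RBM8A in KO1 was at 0.01 and RBMX between the clones at 0.03.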
